A study of Mus musculus with 22 samples.

Results

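The genes described here are Mapk15, Pianp, Rab6b, S100z, Cib3, Tdrd6 and Scrt1, 7 genes of mouse pancreatic islets out of 16749 that were measured well enough to be tested. They were selected on their measured TPM, because their mRNA differed strongly between mice of 2 genetic backgrounds and was uneven among mice of one group in several of them, and Tdrd6 also for a genotype difference that depended on background. The differences between backgrounds and the spread within groups are therefore given as descriptions, with no test. All 7 passed the filter on low values, a level of at least 1 TPM in at least 5 libraries. TPM is an abundance corrected for transcript length, in which the genes of each library add up to 1000000.

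Islets were isolated from male mice at 5.5 weeks of age, and each library came from the islets of 1 mouse. The mice carried either 2 unaltered copies of Mafa (WT) or were heterozygous (Het) for S64F, a change in the protein MAFA, which regulates transcription in beta cells, the cells that make insulin. Each genotype was present on a background labelled C57 and on one labelled Mixed, whose strains are not given in the sources used here. On each background there were 5 WT and 6 Het mice, called C57 WT, C57 Het and, on the other background, Mixed WT and Mixed Het.

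The members belong to different families, and their roles are given here as background. Mapk15 encodes an atypical MAP kinase linked to the formation of cilia. Rab6b encodes a small GTPase of traffic at the Golgi apparatus, enriched in neurons, and Pianp a transmembrane protein of neurons that binds the receptor PILR-alpha and GABA-B receptors. S100z and Cib3 encode calcium-binding proteins with EF-hand motifs. Scrt1 encodes a zinc-finger repressor of the Snail family found in neurons and endocrine cells, and Tdrd6 a Tudor-domain protein of male germ cells. Mice of an inbred line carry nearly the same alleles at every locus, whereas mice of a mixed background can carry different ones from animal to animal.

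Between 14808 and 16126 genes reached 1 TPM in a library, and depth was not known, since TPM keeps none. Mafa mRNA, which does not distinguish the altered from the unaltered copy in this table, fell on C57 from 441 ± 87.6 TPM in WT to 117 ± 23.2 TPM in Het (SD, n = 5 and 6). On Mixed it fell from 598 ± 143 to 152 ± 37.1 TPM (SD, n = 5 and 6). Library numbers run from 1 to 5, 6 to 11, 12 to 16 and 17 to 22 through the groups in that order, so library order and group cannot be told apart. Relative to median-of-ratios scaling, the deposited values move the median of all genes in the Mixed genotype contrast from -0.01 to 0.10 log2 units. The 8 beta-cell marker genes, among them Ins1, Ins2 and Mafa itself, summed to between 250600 and 478600 TPM, as the islet label requires. Replicate 3 of the C57 Het group had the most genes outside the range of the other 5 mice, 56.0% of all genes, against 15.6% to 44.4% for each of those. By median correlation with the mice of its group, replicate 2 was lowest, at 0.9804 against 0.9838 for replicate 3. Values with and without replicate 3 are given where they differ.

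Pianp (ENSMUSG00000030329) was near 1 TPM in nearly every C57 mouse and far higher in every Mixed mouse. The 5 C57 WT mice, in replicate order, had 0.735, 0.589, 0.741, 1.11 and 1.0 TPM. In the C57 Het group, the lowest, median and highest values were 0.896, 1.11 and 35.0 TPM. The highest value came from replicate 3 alone, and the next highest C57 Het mouse had 1.39 TPM. Mixed WT mice had 74.1, 64.6, 27.0, 27.0 and 33.4 TPM, and Mixed Het mice ranged from 36 to 114 TPM with a median of 43.5. Thus 1 mouse labelled C57 Het had a Pianp level within the range of the Mixed mice. The mean on Mixed was 54.2 times that on C57 in WT and 9.05 times in Het mice, and the latter ratio is set largely by that mouse. Without it, the C57 Het mean was 1.09 ± 0.211 TPM (SD, n = 5) instead of 6.74 ± 13.9 TPM (n = 6).

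**Figure D1:**
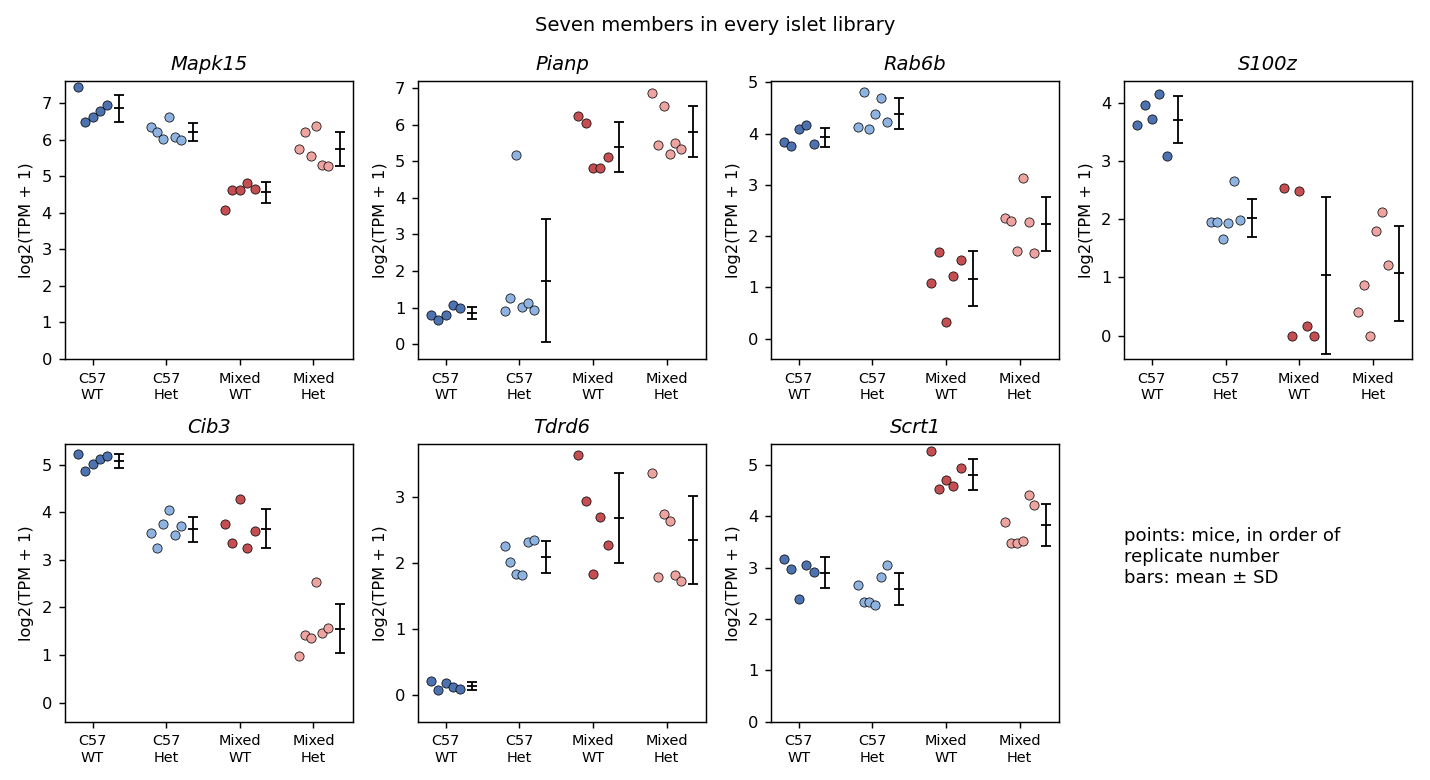
Levels of the 7 members in each of the 22 libraries, on a log2(TPM + 1) axis, by group. Each point is 1 mouse, and the bars give the mean and SD of the group. Pianp in C57 Het replicate 3 lies at 35.0 TPM among mice near 1 TPM, and S100z in Mixed WT lies either near 0 or above 4 TPM.

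Values of blood genes moved with that mouse. Hbb-bs, which encodes a haemoglobin chain of red blood cells, was at 160 TPM in C57 Het replicate 3 and at a mean of 25.2 TPM in the other 5 C57 Het mice, and Alas2, a haem synthesis gene of red cells, was at 4.99 against 0.561 TPM. In Mixed WT mice, where Pianp was high, the mean of Hbb-bs was 33.7 TPM. The part of blood RNA in the Pianp value was not tested. Of the 17 tested genes among the 10 nearest protein-coding genes on each side of Pianp, 14 lay outside the range of the other 5 mice in replicate 3. Those 17 genes differed from the mean of the other 5 mice by at most 0.68 log2 units, and Pianp by 4.12. In each of the other 5 mice, 0 to 10 of those 17 genes lay outside. The summed level of 8 neural and Schwann cell markers in WT mice was 38.5 to 70.1 TPM on C57 and 34.3 to 51.7 TPM on Mixed, with 1 of the 8 called higher on Mixed and 1 lower. In Het mice the sums were 44.3 to 59.5 TPM on C57 and 58.2 to 86.1 TPM on Mixed. Of the 8 markers 5 were called higher on Mixed, where 20.5% of all genes passed in either direction. The part of these cells in the Pianp values was not tested.

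Tdrd6 (ENSMUSG00000040140) was near 0 TPM in C57 WT islets and above 2 TPM in every mouse of the other groups. The C57 WT mice had 0.159, 0.0594, 0.135, 0.0879 and 0.0627 TPM. All 6 C57 Het mice lay between 2.51 and 4.08 TPM, with a median of 3.42. The Mixed WT mice had 11.3, 6.69, 2.58, 5.51 and 3.82 TPM, and the Mixed Het mice ranged from 2.31 to 9.26 TPM with a median of 3.86. No C57 WT mouse overlapped any other group, while the other groups overlapped one another. The ratio of means was 59.4 for Mixed WT over C57 WT and 33.0 for C57 Het over C57 WT, and how well values near 0.1 TPM are measured cannot be judged without depth.

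S100z (ENSMUSG00000021679) was highest in C57 WT mice, at 11.3, 14.5, 12.3, 16.8 and 7.52 TPM. C57 Het mice ranged from 2.17 to 5.30 TPM with a median of 2.88. Mixed WT mice had 4.78, 0, 4.58, 0.119 and 0 TPM, so 2 of the 5 were listed at 0 and 2 lay above 4 TPM. Mixed Het mice ranged from 0 to 3.36 TPM with a median of 1.07. The C57 WT values overlapped no other group, whereas the remaining 3 groups overlapped.

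Cib3 (ENSMUSG00000074240) showed 3 levels over the 4 groups. The C57 WT mice had 36.2, 28.2, 31.1, 34.0 and 35.4 TPM. C57 Het mice (8.5 to 15.6 TPM, median 11.4) and Mixed WT mice (8.53 to 18.4 TPM, median 11.2) covered nearly the same range. Mixed Het mice had the lowest values, from 0.979 to 4.83 TPM with a median of 1.73, and did not overlap the other groups.

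Rab6b (ENSMUSG00000032549) was higher in C57 than in Mixed mice, with no overlap in either genotype. C57 WT mice had 13.2, 12.5, 15.9, 16.9 and 13 TPM, and C57 Het mice ranged from 16.1 to 26.9 TPM with a median of 18.7. Mixed WT mice had 1.11, 2.24, 0.255, 1.34 and 1.88 TPM. Mixed Het mice ranged from 2.18 to 7.74 TPM with a median of 3.87. The mean was 10.5 times higher in C57 WT than in Mixed WT, and 5.08 times higher in C57 Het than in Mixed Het.

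Mapk15 (ENSMUSG00000063704) was highest in C57 WT, then in C57 Het and Mixed Het, and lowest in Mixed WT mice. C57 WT mice had 172, 88.7, 97.9, 108 and 123 TPM. C57 Het mice ranged from 62.6 to 97.0 TPM with a median of 69.5, and Mixed Het mice from 37.7 to 81.9 TPM with a median of 49.0. Mixed WT mice had 16, 23.6, 23.7, 27.1 and 24.0 TPM. Only the Mixed WT group was separate from every other group, and each of the remaining neighbours in that order overlapped.

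Scrt1 (ENSMUSG00000048385) had the reverse order of backgrounds. C57 WT mice had 8.03, 6.84, 4.22, 7.32 and 6.55 TPM, and C57 Het mice ranged from 3.83 to 7.24 TPM with a median of 4.71, so the C57 groups overlapped. Mixed Het mice ranged from 10.1 to 20.4 TPM with a median of 12.1. Mixed WT mice had 37.4, 22.1, 25.2, 23.0 and 29.7 TPM, above every other mouse.

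In WT mice none of the 7 genes overlapped between backgrounds, where 6.13% of all genes tested did not overlap, and in Het mice 4 of 7 did not, where the share of all genes was 9.85%. These contrasts chose the members, so nothing is read from the counts. On the log2(TPM + 1) scale, which understates changes of low genes, the Mixed minus C57 difference in WT mice was 4.53 for Pianp (SE 0.59), 2.54 for Tdrd6 (SE 0.29) and 1.91 for Scrt1 (SE 0.20). It was -2.76 for Rab6b (SE 0.24), -2.67 for S100z (SE 0.47), -2.30 for Mapk15 (SE 0.20) and -1.43 for Cib3 (SE 0.22). In Het mice the sizes differed by gene. The difference was 4.07 for Pianp (SE 0.54), -2.15 for Rab6b (SE 0.22), -2.08 for Cib3 (SE 0.20) and 1.25 for Scrt1 (SE 0.18), but -0.47 for Mapk15 (SE 0.19), -0.95 for S100z (SE 0.43) and 0.25 for Tdrd6 (SE 0.27).

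The spread between mice of a group differed by gene and background. Over all genes tested, the median within-group SD of log2(TPM + 1) on C57 was 0.23 in WT and 0.15 in Het mice, and on Mixed 0.20 and 0.18. Tdrd6 had an SD of 0.058 in C57 WT and 0.24 in C57 Het mice, and of 0.68 and 0.67 in Mixed WT and Mixed Het mice, at the 96.0th and 96.6th percentile of all genes. This scale flattens spread near 0.1 TPM, the level of Tdrd6 in C57 WT mice. As a share of mean TPM, the spread of Tdrd6 reached 44.1% among C57 WT mice, against 21.4% among C57 Het mice. For Mixed WT and Mixed Het mice that share came to 56% and 60%. By that measure C57 WT mice were more uneven than C57 Het mice. S100z had an SD of 1.34 in Mixed WT mice (99.6th percentile) and 0.81 in Mixed Het mice (98.1st percentile), against 0.40 and 0.33 in the C57 groups. For Pianp the largest spread was in C57 Het mice, at 1.69 (99.9th percentile), and without replicate 3 it was 0.14. Its SD in the Mixed groups was 0.69 in each.

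Rab6b and Cib3 followed the same order with smaller values. The SD of Rab6b was 0.18 and 0.30 in C57 WT and Het mice and 0.53 in each Mixed group, and that of Cib3 rose from 0.15 in C57 WT to 0.52 in Mixed Het mice. Mapk15 and Scrt1 had SDs from 0.24 to 0.46 and from 0.30 to 0.41 over the 4 groups. Of these 8 values, that of Mapk15 in Mixed Het mice was the highest against all genes, at the 91.6th percentile.

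**Figure D2:**
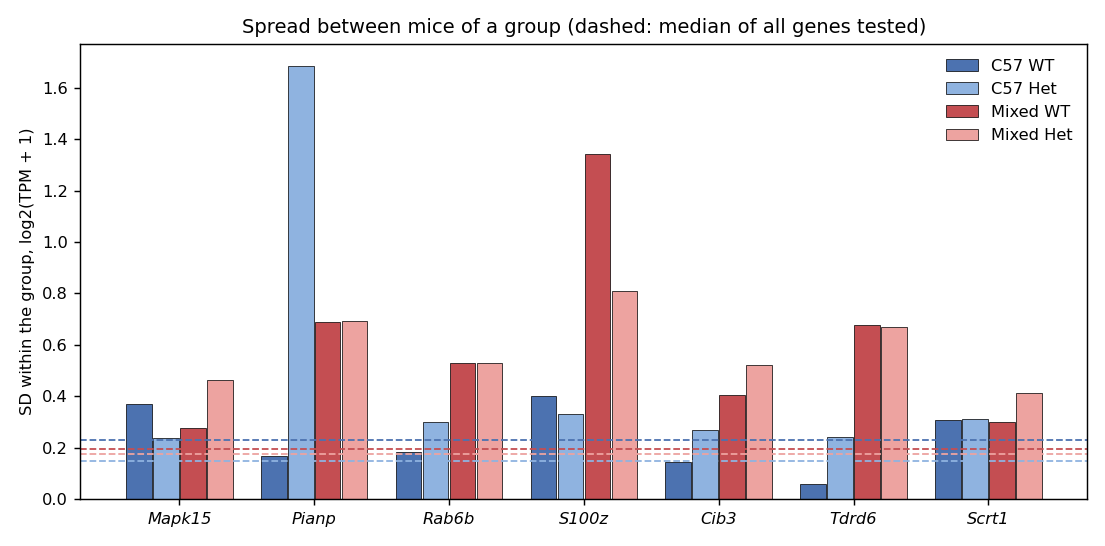
Within-group SD of log2(TPM + 1) for each member, with 1 bar per group and dashed lines at the median of all 16749 genes tested in that group. Pianp in C57 Het (1.69) and S100z in Mixed WT (1.34) have the tallest bars.

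The mice at the ends of the range were not the same for each gene. Among the Mixed Het mice, replicates 1 and 3 were highest for Pianp (114 and 89.9 TPM), replicates 4 and 2 for Mapk15 (81.9 and 73.2 TPM) and replicates 5 and 6 for Scrt1 (20.4 and 17.7 TPM). Replicate 4 had the highest Rab6b (7.74 TPM) and the highest Cib3 (4.83 TPM) of that group. After the mean of its group was taken from each value, the correlation between members over the 22 libraries lay between -0.46, for Mapk15 with Scrt1, and 0.52, for S100z with Cib3. These are descriptions of libraries that share groups, and no test was made.

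The effect of genotype was a separate contrast from the one that chose the members. It asks whether S64F Het islets differed from WT islets in these genes. The difference averaged over both backgrounds passed an adjusted p of 0.05 (limma, Benjamini-Hochberg over all genes) in 5 of the 7 genes, where 54.1% of all genes passed, so the count says nothing particular about the members. Rab6b rose by 0.76 (SE 0.17, limma adjusted p = 0.000555), and Tdrd6 rose as well, where 37.3% of all genes rose. S100z, Cib3 and Scrt1 fell, where 16.8% of all genes fell, Cib3 by 1.77 (SE 0.15, limma adjusted p = 3.58e-09) and Scrt1 by 0.65 (SE 0.14, limma adjusted p = 0.000426). The tests within a background share samples with the contrasts that chose the members, so their p-values are not independent of that choice. For each gene the 4 groups share 1 estimate of the spread, although the spread differed between groups for several members. The SE and adjusted p within a background therefore rest partly on mice of the other background.

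Averaged over backgrounds, Cib3 fell the most of the 7 genes, and it fell on both. The difference was -1.44 in C57 (SE 0.21, limma adjusted p = 2.59e-05) and -2.10 in Mixed (SE 0.21, limma adjusted p = 1.06e-07). Every Het mouse lay below every WT mouse of its background, and the ratio of the Het to the WT mean was 0.353 on C57 and 0.177 on Mixed. The summed level of the 8 beta-cell markers was also lower in Mixed Het (250600 to 342400 TPM) than in Mixed WT mice (401000 to 478600 TPM), and that of 8 markers of other endocrine cells, such as Gcg and Sst, was higher (119300 to 173300 against 39760 to 68990 TPM). On C57 the beta-cell sums were 369600 to 449700 TPM in WT and 323300 to 378800 TPM in Het mice, and those of the other endocrine cells were 38790 to 81790 and 97430 to 146700 TPM. Of the 8 beta-cell markers, 2 passed as lower and 1 as higher in C57 Het mice, and 5 as lower in Mixed Het mice (limma). Of all genes, 11.6% fell on C57 and 13.5% on Mixed. Of the 8 other endocrine markers, 6 rose on each background. All 9 tested acinar markers also rose in C57 Het mice (limma), where 26.4% of all genes rose. In Mixed Het mice 2 of those 9 rose, where 30.7% of all genes did. In whole islets, fewer cells of a type and less RNA per cell cannot be told apart, and the part of cell composition in the Cib3 result was not tested.

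S100z fell in C57 Het islets by 1.68 on the log2 scale (SE 0.45, limma adjusted p = 0.00563), with all 6 Het mice below every WT mouse. With a pseudocount of 0.1 the difference was -1.95 and did not pass (limma adjusted p = 0.11). In Mixed islets the difference was 0.04 (SE 0.45, limma adjusted p = 0.956), and its sign changed with median-of-ratios scaling. The averaged difference of -0.82 (SE 0.32, limma adjusted p = 0.0327) did not pass with a pseudocount of 0.1 (adjusted p = 0.451), without the filter (0.0737), or without any one of C57 WT replicate 4, Mixed WT replicates 1 and 3 and Mixed Het replicates 1 and 3 (adjusted p from 0.0549 to 0.0748).

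Both of these calcium-binding genes fell in C57 Het islets, and the RefSeq windows around their start sites are shown because the altered gene, Mafa, encodes a factor that binds DNA. The windows hold 250 bases before and 50 bases after the annotated start, on build GRCm38.p6. Whether islet transcripts begin at these annotated starts was not tested, so neither window is read as a promoter. That of S100z is chr13:95478606-95478905 and that of Cib3 is chr8:72212788-72213087, both on the minus strand. Capitals mark TGCTGA, the half-site of the MAF recognition element, or its reverse complement TCAGCA.
S100z: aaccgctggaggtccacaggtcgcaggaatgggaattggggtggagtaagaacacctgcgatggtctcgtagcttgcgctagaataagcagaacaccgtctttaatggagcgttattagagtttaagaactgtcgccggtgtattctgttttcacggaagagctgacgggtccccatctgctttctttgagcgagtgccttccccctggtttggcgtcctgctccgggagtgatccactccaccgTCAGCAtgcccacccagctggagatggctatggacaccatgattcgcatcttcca
Cib3: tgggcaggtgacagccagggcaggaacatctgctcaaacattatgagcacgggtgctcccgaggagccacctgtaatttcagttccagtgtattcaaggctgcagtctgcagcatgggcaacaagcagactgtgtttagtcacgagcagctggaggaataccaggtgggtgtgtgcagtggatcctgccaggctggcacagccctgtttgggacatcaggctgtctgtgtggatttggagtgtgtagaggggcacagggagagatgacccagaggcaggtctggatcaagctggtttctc
The letters occur once in the S100z window and not in that of Cib3, and 19.5% of all 32851 windows of that length hold them on either strand. Pianp and Rab6b also had windows, without a match. A match describes letters and is not a binding site, and the lack of a match says nothing about binding.

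Mapk15 changed in opposite directions. It fell in C57 Het islets by 0.65 on the log2 scale (SE 0.20, limma adjusted p = 0.0127), with 5 of 6 Het mice below every WT mouse, and rose in Mixed Het islets by 1.18 (SE 0.20, limma adjusted p = 5.45e-05), with all 6 Het mice above every WT mouse. The call in C57 was lost without C57 WT replicate 1, the highest mouse at 172 TPM (-0.50, limma adjusted p = 0.0503), and with the acinar marker score as a covariate (-0.54, limma adjusted p = 0.12). The summed level of the 10 acinar markers was 219 to 407 TPM in C57 WT and 272 to 1715 TPM in C57 Het mice. The averaged difference was 0.27 (SE 0.14, limma adjusted p = 0.106). As a description, the difference in Mixed exceeded that in C57 by 1.83 log2 units (SE 0.28).

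Scrt1 fell in Mixed Het islets by 0.97 (SE 0.19, limma adjusted p = 0.000353), from a mean of 27.5 ± 6.27 to 13.8 ± 4.39 TPM (SD, n = 5 and 6), with no overlap. In C57 islets it differed by -0.32 (SE 0.19, limma adjusted p = 0.198). Rab6b rose in Mixed Het islets by 1.07 (SE 0.23, limma adjusted p = 0.000943), from 1.37 ± 0.762 to 4.01 ± 2.01 TPM, and 5 of 6 Het mice lay above every WT mouse. In C57 it differed by 0.46 (SE 0.23, limma adjusted p = 0.124), with 4 of 6 Het mice above every WT mouse, and passed when only C57 samples entered the fit (limma adjusted p = 0.0214).

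Pianp did not pass in either background. The difference was 0.87 in C57 (SE 0.56, limma adjusted p = 0.229), and 0.19 without replicate 3 (SE 0.30, limma adjusted p = 0.656). In Mixed it was 0.41 (SE 0.56, limma adjusted p = 0.582). Tdrd6 had been picked out earlier for a genotype difference that depended on background, so its values within a background carry no test. They were 1.96 in C57 (SE 0.28) and -0.33 in Mixed (SE 0.28), and the averaged difference was 0.81 (SE 0.20, limma adjusted p = 0.0015). That average is positive through C57 alone, where the WT mice had a mean of 0.101 TPM. Those mice also entered the contrasts that chose Tdrd6, so this p-value is not independent of that choice. Over the 6 genes tested, 3 passed in C57, where 38.0% of all genes did, and all 3 fell, where 26.4% of all genes rose and 11.6% fell. In Mixed 4 passed, where 44.1% of all genes did, 2 of them higher and 2 lower, where 30.7% rose and 13.5% fell. Het and WT mice did not overlap in 3 of the 7 genes in C57 (S100z, Cib3 and Tdrd6), against 21% of all genes, and in 3 in Mixed (Mapk15, Cib3 and Scrt1), against 23.6%.

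**Figure D3:**
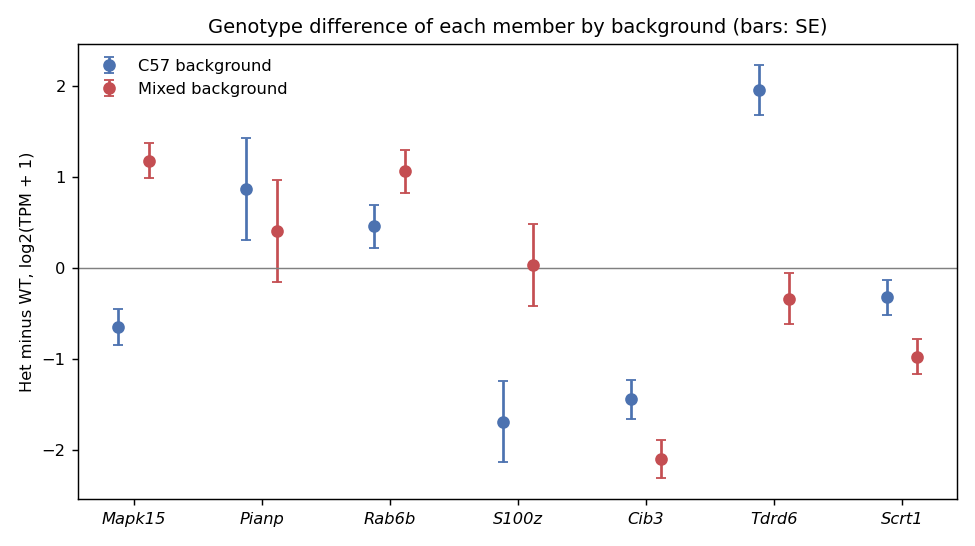
Het minus WT difference of each member on the log2(TPM + 1) scale in C57 (blue) and Mixed (red) mice, with SE bars from the limma fit. Cib3 is below 0 on both backgrounds, at -1.44 and -2.10, and Mapk15 lies at -0.65 in C57 and 1.18 in Mixed.

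Position in the genome was not used to choose the members. In the order of protein-coding genes of the GENCODE M21 annotation, Mapk15 and Scrt1 lie on the chromosome of Mafa, with 11 and 38 protein-coding genes between them and Mafa. The other 5 members lie on other chromosomes. The annotation is on an older build than mm39, the build in the submitters' processing notes, so only gene order was used. No protein-coding gene overlaps a member in that annotation.

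The 10 nearest protein-coding genes on each side of every member gave 140 neighbours, of which 107 were tested. Of these, 13 passed for Mixed against C57 in WT mice (6 higher and 7 lower in Mixed), or 12.1%, where 11.3% of all genes passed, and 19 passed in Het mice (14 higher and 5 lower), or 17.8%, where 20.5% of all genes passed. After median-of-ratios scaling the latter split was 15 higher and 15 lower. Thus differences between backgrounds were about as frequent around the members as among all genes. Around Mapk15, 1 of 17 tested neighbours passed in WT mice, and around Scrt1 1 of 16 did. For genotype averaged over backgrounds 63 of the 107 passed (42 higher and 21 lower in Het, or 36 and 31 after median-of-ratios scaling), 58.9%, close to the 54.1% of all genes.

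A few neighbours next to Tdrd6 and S100z did differ between backgrounds in WT mice. Slc25a27, a mitochondrial carrier gene and the next protein-coding gene to Tdrd6, averaged 19 ± 6.81 TPM on C57 and 42.3 ± 15.7 TPM on Mixed in WT mice (SD, n = 5 each), a log2 difference of 1.09 (SE 0.30, limma adjusted p = 0.0218). Cyp39a1, an oxysterol hydroxylase gene 2 places from Tdrd6, averaged 3.79 ± 0.276 TPM on C57 and 13.3 ± 6.45 TPM on Mixed in WT mice (log2 difference 1.45, SE 0.34, limma adjusted p = 0.00808). In Het mice neither passed, with differences of 0.29 for Slc25a27 (SE 0.28, limma adjusted p = 0.497) and 0.74 for Cyp39a1 (SE 0.31, limma adjusted p = 0.1). Like Tdrd6, Cyp39a1 was higher in every C57 Het mouse (9.03 to 13.6 TPM) than in every C57 WT mouse (3.43 to 4.16 TPM), and its genotype difference averaged over backgrounds was 1.05 (SE 0.23, limma adjusted p = 0.00068). Unlike Tdrd6, whose Mixed means were 5.99 TPM in WT and 4.57 TPM in Het mice, Cyp39a1 averaged 13.3 and 24.0 TPM there.

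The 3 genes also varied together among mice of a group. Tdrd6 in the Mixed Het mice, in replicate order, was 9.26, 2.46, 5.67, 5.20, 2.52 and 2.31 TPM. Cyp39a1 in the same mice was 36.7, 10.5, 30.8, 43.8, 11.9 and 10.5 TPM. Slc25a27 was 65.1, 21.8, 39.7, 56.1, 22.3 and 20.3 TPM. Replicates 1, 3 and 4 were high for all 3 genes and replicates 2, 5 and 6 were low, with no overlap. After group means were taken away, Cyp39a1 (Pearson r = 0.856) and Slc25a27 (r = 0.846) had the highest correlations with Tdrd6 among the 13031 genes considered, over 22 libraries. Over the 11 Mixed mice r was 0.887 and 0.932, and over the 11 C57 mice 0.298 and 0.404.

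Next to S100z, Crhbp, which encodes a binding protein of corticotropin-releasing hormone, averaged 1.78 ± 0.890 TPM on C57 and 0.277 ± 0.459 TPM on Mixed in WT mice (log2 difference -1.13, SE 0.21). The Mixed WT mice had 1.06, 0, 0.324, 0 and 0 TPM. Like S100z, Crhbp was also low in C57 Het mice (0.205 ± 0.208 TPM, SD, n = 6), and its genotype difference averaged over backgrounds was -0.64 (SE 0.14). Among Het mice Crhbp differed by -0.08 between backgrounds (SE 0.19), with at most 0.611 TPM on C57 and 0.264 TPM on Mixed. Crhbp met the filter on low values only through C57 WT mice and Mixed WT replicate 1, so no p is given for it. Iqgap2, a scaffold protein gene 3 places from S100z, went the other way from S100z and Crhbp in WT mice, averaging 2.58 ± 0.710 TPM on C57 and 15.3 ± 6.81 TPM on Mixed (2.05, SE 0.39, limma adjusted p = 0.00141). In Het mice Iqgap2 averaged 1.67 ± 0.235 TPM on C57 and 8.13 ± 5.90 TPM on Mixed (1.51, SE 0.35, limma adjusted p = 0.0045). Among Mixed mice, low S100z went with high Iqgap2. The 4 Mixed mice with S100z at or below 0.119 TPM, 3 WT and 1 Het, had Iqgap2 between 17.8 and 21.2 TPM, and the Mixed WT mouse with the highest S100z, 4.78 TPM, had Iqgap2 at 4.36 TPM. The Mixed WT mouse with 4.58 TPM of S100z was an exception, with Iqgap2 at 13.3 TPM. After group means were taken away, r was -0.783 over the 11 Mixed mice and 0.628 over the 11 C57 mice, a description of mice that share groups.

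**Figure D4:**
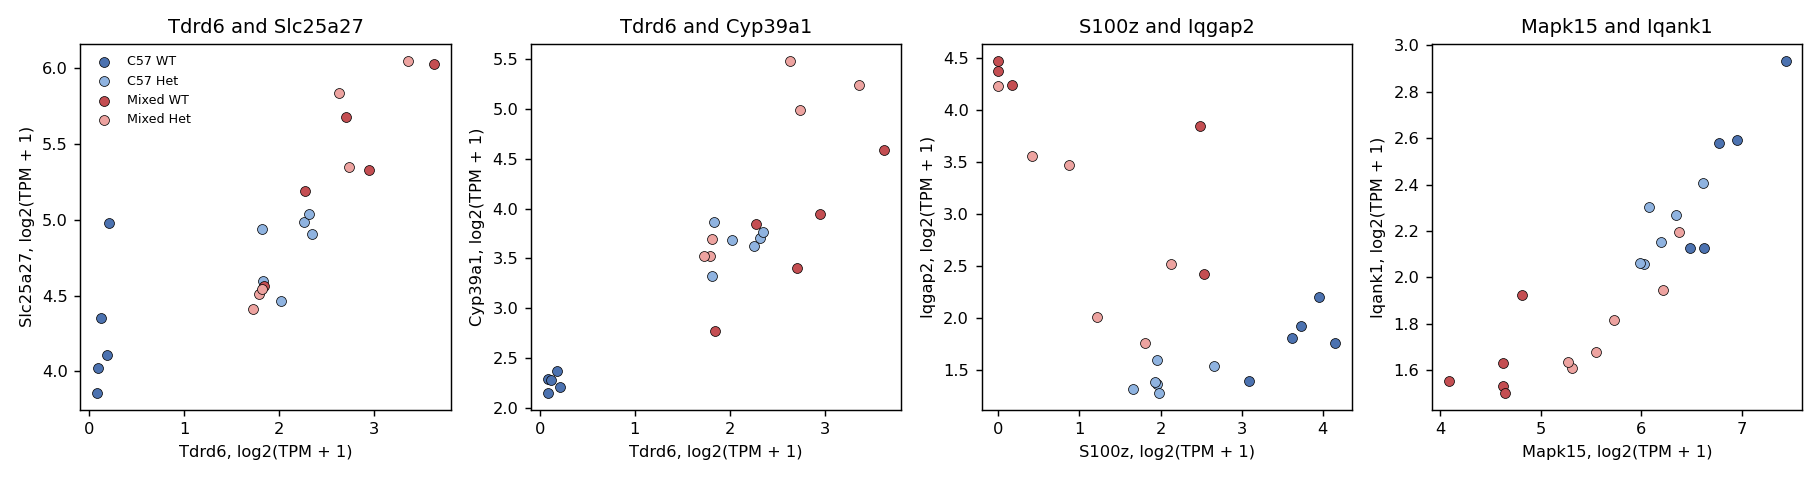
Level of a neighbouring gene against that of the member in each of the 22 mice, both as log2(TPM + 1), coloured by group. Tdrd6 rises with Slc25a27 and Cyp39a1 among Mixed mice, S100z falls as Iqgap2 rises among them, and Iqank1 rises with Mapk15.

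Genes with the most similar pattern were taken by Pearson r of log2(TPM + 1). After group means were taken away, the gene closest to Mapk15 was Iqank1 (r = 0.838), which lies 2 places from it and ranged from 1.83 to 2.80 TPM in Mixed WT and from 3.36 to 6.64 TPM in C57 WT mice. Garnl3 (0.804) and Sart1 (0.798) came next and lie on other chromosomes. Rab6b was closest to Snapc5 (0.81), Rab15 (0.781) and Snapin (0.768), of which Snapc5 lies on its chromosome. For S100z the closest genes were Rsl1 (0.722), Nupr1 (0.695) and Tmigd1 (0.685), and for Scrt1 they were Rspo4 (0.745), Mfsd11 (0.726) and Cflar (0.722). Of these, Rsl1 lies on the chromosome of S100z. Cib3 was closest to Fam151a (0.77), Rps24 (0.753) and Trpm5 (0.749), and the third gene for Tdrd6 was Apobec2 (0.817). Apobec2 lies on the chromosome of Tdrd6. The closest genes to Pianp, Alas2 (0.71), Myl6b (0.668) and Hba-a2 (0.622), rested on C57 Het replicate 3, without which r was 0.256, 0.225 and 0.189.

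Over the 22 libraries with group means left in, r mostly follows the 4 groups. The highest values were 0.955 for Cib3 with Trpm5, a cation channel of beta cells, 0.949 with Fam151a and 0.944 with Col6a6. Trpm5 had means of 67.5 TPM (WT) and 26 TPM (Het) on C57, and of 44.9 and 7.69 TPM on Mixed, lowest in the same group as Cib3. Mapk15 was most like Drap1 (0.933), Iqank1 (0.902) and Mettl27 (0.871), Rab6b most like Bco2 (0.918), Fgf1 (0.909) and Plaat3 (0.887), and Scrt1 most like Pyroxd2 (0.905), Sytl1 (0.90) and Rab4a (0.897). Pianp was most like Eno2, the neuronal enolase gene (0.883), Itih1 (0.882) and Cfap206 (0.877). Eno2 lies on the chromosome of Pianp, 14 places from it in gene order. S100z was most like Itga2 (0.856), its neighbour Crhbp (0.835) and Prr29 (0.814), and Tdrd6 most like Il6st (0.885), Cyp39a1 (0.876) and Rassf8 (0.874). Bco2 lies on the chromosome of Rab6b, and Itga2 on that of S100z.

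Relatives and partners of the members were taken from 6 lists of 87 genes, of which 59 were tested. For Mixed against C57, 10 passed in WT mice (16.9%, against 11.3% of all genes) and 10 in Het mice (16.9%, against 20.5%). For genotype averaged over backgrounds 24 passed (40.7%, against 54.1%), 20 of them higher and 4 lower in Het. After median-of-ratios scaling the split was 17 higher and 13 lower.

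Of 13 other MAP kinases, all tested, 1 was higher and 1 lower in Mixed WT mice, Mapk6 by 0.78 (limma adjusted p = 0.00821) and Mapk3 by -0.32 (limma adjusted p = 0.0127). In Het mice 3 were higher on Mixed, among them Mapk11 by 0.73 (limma adjusted p = 0.00169) and Mapk12 by 0.66 (limma adjusted p = 0.0152). Mapk4, an atypical MAP kinase, rose with genotype by 1.20 (limma adjusted p = 9.92e-09), from 2.30 to 5.87 TPM on C57 and from 1.63 to 5.82 TPM on Mixed. Among Rab6a and partners of Rab6 proteins in Golgi traffic, 4 of 18 were higher in Mixed WT mice, with Gcc1, a golgin, higher by 0.90 (limma adjusted p = 0.00385). In Het mice 0 of the 18 passed by limma (2 at an unadjusted p under 0.05), against 4 after median-of-ratios scaling, 3 of them lower on Mixed. With genotype 9 of 18 rose, by 0.20 to 0.41, where 37.3% of all genes rose, and 8 of 18 did so after median-of-ratios scaling.

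S100a10, which encodes an annexin partner, was lower in Mixed WT than in C57 WT mice by 0.70 on the log2 scale (limma adjusted p = 0.00519) and, among Het mice, higher on Mixed by 0.51 (limma adjusted p = 0.0137). S100a6 and S100a16 were higher in Mixed Het mice by 0.93 and 0.73 (limma adjusted p = 0.0246 and 0.0118). Markers of other cells moved in the same contrast, in which 20.5% of all genes passed. Among Het mice, 6 of 7 tested mesenchymal markers and 6 of 8 tested immune markers were higher on Mixed, and 1 immune marker was lower. Summed mesenchymal levels were 125 to 543 against 118 to 158 TPM, and immune levels 297 to 588 against 212 to 295 TPM. Their part in the S100 values was not tested.

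Of 17 Tudor and piRNA genes only 5 were tested. Those below the filter included Ddx4, Mael and the Piwil genes, which work with Tudor proteins in germ cells. All 5 tested rose with genotype, among them Snd1, a Tudor-domain nuclease, by 0.54 (limma adjusted p = 4.69e-07), and 4 did so with median-of-ratios or quantile scaling. As 37.3% of all genes rose with genotype, nothing particular to the list is read from that count. Of partners of Pianp, the GABA-B receptor subunit gene Gabbr2 fell with genotype by 0.93 (limma adjusted p = 1.09e-06), from 11.9 to 6.19 TPM on C57 and from 15.6 to 7.40 TPM on Mixed, and Kctd12, an auxiliary subunit gene of that receptor, fell by 0.54 (limma adjusted p = 0.00209). Kctd12 was also higher in Mixed WT than in C57 WT mice by 0.62 (limma adjusted p = 0.0492). Of 7 tested genes of the Scratch and Snail list, 0 passed between backgrounds in WT mice by limma (2 at an unadjusted p under 0.05). In Het mice 1 passed, Myt1, a neuroendocrine transcription factor gene, lower on Mixed by 0.40 on the log2 scale (limma adjusted p = 0.0149).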

How the data were processed

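Poly(A) RNA libraries of islets from 22 male mice were sequenced as paired reads, per the labels' protocols. The authors deposited 1 table of TPM with 57010 genes and 22 value columns. STAR 2.7.10b, MultiQC 1.7 and build mm39 are named in the submitters' processing notes. The counting tool, annotation and strand setting are not given in the sources used here. Columns were matched to samples by library name, and replicate numbers follow accession order. Where a symbol was repeated (147 symbols), the row with the highest mean was kept.

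limma 3.58.1 in R 4.3.3 (lmFit on 4 group means, eBayes with trend) was run on log2(TPM + 1) for 16749 genes with at least 1 TPM in at least 5 libraries, with Benjamini-Hochberg adjustment over all of them. The fit was tested on simulated data, in which each gene had the same spread in every group. The members and lists were chosen with earlier results of these data known. Tests were made for genotype within and over backgrounds, neighbours and lists. Genes named beside the members were the 3 with the highest r under each measure, neighbours that passed for background with a log2 difference of at least 1, and list genes that passed with at least 0.5, up to 4 a list. Other list genes were named after their values were seen. Neighbours were the 10 nearest protein-coding genes on each side, in the order of GENCODE M21, since the window planned in bases needs the build of the table. Alternatives were a pseudocount of 0.1, no filter, median-of-ratios and quantile scaling, sample weights, robust eBayes, an acinar covariate, fits on the contrast's samples, exact permutation and leaving out each mouse.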

Additional observations from a re-analysis of the deposited data

Results flagged for a closer look

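In 4 of the 28 gene and group combinations, 1 mouse lay far from the others by Dixon's criterion, taken on log2(TPM + 1). Chance meets it in about 1 of 20 groups, but 28 combinations of genes chosen with these values known are no test, and the count is a description. These were Pianp in C57 Het replicate 3 at 35.0 TPM (the next mouse had 1.39 TPM), Mapk15 in Mixed WT replicate 1 at 16 TPM (next 23.6 TPM), S100z in C57 Het replicate 5 at 5.30 TPM (next 2.95 TPM) and Cib3 in Mixed Het replicate 4 at 4.83 TPM (next 1.95 TPM). The ratio of gap to range was close to its critical value for Cib3 (0.631 against 0.625) and Mapk15 (0.735 against 0.71).

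The genotype difference in Mixed minus that in C57 was 1.83 log2 units for Mapk15 (SE 0.28), where C57 Het mice were mostly lower and Mixed Het mice all higher than WT, and -2.29 for Tdrd6 (SE 0.39). For the other members it was 1.72 for S100z (SE 0.63), -0.66 for Cib3 (SE 0.30), -0.65 for Scrt1 (SE 0.27), 0.60 for Rab6b (SE 0.33) and -0.46 for Pianp (SE 0.79). This interaction is the difference of the contrasts that chose the members, so it is a description without a p-value. Mapk15 and Tdrd6 are named first, and that order carries no test. Their values were the largest in size of those given here, with S100z at 1.72 close to Mapk15 at 1.83.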

How the results depend on the processing

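Of 924 values of members under an alternative setting, 891 kept their direction, side of the threshold and size. The Het minus WT difference in Mixed turned to -0.035 with sample weights for Pianp. That of S100z turned to -0.41 with the acinar covariate, -0.025 with median-of-ratios scaling, and between -0.222 and 0.41 without 1 mouse each (-0.111 and -0.174 without Mixed Het replicates 4 and 5, -0.222, -0.182 and -0.222 without Mixed WT replicates 2, 4 and 5). The Tdrd6 difference between Mixed Het and C57 Het turned to -0.079 with sample weights, and the Pianp interaction to 0.223 without C57 Het replicate 3 (-0.672 to 0.223 over mice left out). The cause was not tested. Mapk15 averaged over backgrounds passed with sample weights (0.35, limma adjusted p = 0.0347) and without C57 WT replicate 1 (0.34, limma adjusted p = 0.0353). With a pseudocount of 0.1 the low genes moved most, as the Mixed WT minus C57 WT difference of Tdrd6 to 4.78 and of S100z to -4.47.

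The count of members passing for genotype was 4 to 6 averaged, 2 to 3 in C57 and 4 in Mixed when each mouse was left out. Neighbours passing for background in Het mice were 30 with median-of-ratios scaling and 44 with sample weights, and lists' genes 22 with sample weights. Leaving out each mouse gave 8 to 14 neighbours in WT (8 without C57 WT replicate 1 or 5), 13 to 23 in Het and 56 to 64 for genotype, and 7 to 14, 6 to 12 (6 without C57 Het replicate 1 or Mixed Het replicate 5) and 24 to 28 genes of the lists. For background in Het mice, genes of the lists split 9 to 1, or 7 to 5 after median-of-ratios scaling. With 25 neighbours on each side, chosen after seeing the data, 15.6%, 23.8% and 58.4% passed. The windows of 1 and 5 Mb were not run. No paired analysis was possible because the labels carry no replicate numbers. Depth, and so the precision of low TPM, is unknown.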

Other observations

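C57 Het replicate 3 stood alone as the highest mouse of its group in 17 genes, by Dixon's criterion and by at least 1 log2 unit. Of these, 7 also had means in both Mixed groups at or above 1 TPM and at least 4 times that of the other 5 C57 Het mice, namely Pianp, Tmem45a, Gm7887, Hdac1-ps, Smt3h2-ps, Gm13394 and Gm4864, named after their values were seen. Their C57 WT means, in that order, were 0.834, 0.285, 0.473, 1.51, 2.43, 0.112 and 0.261 TPM. Hdac1-ps and Smt3h2-ps, at 0.381 and 0.097 TPM in the other 5 C57 Het mice, were thus not low in all other C57 mice. Gm13394 was at 43.5 TPM in that mouse and at a mean of 0.0665 TPM in the other 5, and its means on Mixed were 50 TPM in WT and 82.8 TPM in Het mice. Tmem45a was at 2.94 TPM against 0.354 TPM, with 1.87 and 5.30 TPM in the Mixed groups. Another 4 of the 17 encode haemoglobin chains. Their means in C57 WT, then in Mixed WT and Mixed Het mice, were 44.2, 33.7 and 28.4 TPM for Hbb-bs, 29.6, 27.4 and 32.3 TPM for Hba-a1, 10.9, 5.20 and 0.623 TPM for Hba-a2, and 8.45, 6.17 and 5.06 TPM for Hbb-bt. Reads of pseudogenes can be shared with parent genes, so those values are uncertain. The other C57 Het mice stood alone, as highest or lowest, in 4 to 38 genes, and replicate 3 in 24.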
